A study of Homo sapiens with 6 samples.

Results

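CD14 and 9 genes of Toll-like receptor signalling (LY96, TLR1, TLR2, TLR3, TLR4, TLR6, MYD88, IRAK2 and TICAM1) were examined, 10 of the 18377 genes measured. CD14 was chosen by its wide range among the arrays, and the others because they belong to the same pathway, so the range of CD14 is given as a description with no test. Each gene was read by 1 probe set, a group of probes for 1 transcript, so no choice between probe sets was needed. The arrays came from MDA-MB231, a widely used human line from a triple-negative breast cancer with mesenchymal traits. Cells transfected with GHSROS in the pTargeT mammalian expression vector (3 arrays) were compared with cells transfected with the empty pTargeT vector (3 arrays, called vector-only). The long noncoding RNA GHSROS comes from the opposite strand of the ghrelin receptor gene, and the comparison asks which RNAs differ in level when the cells carry it. Both groups were grown in the same medium with calf serum, and no Toll-like receptor ligand is named in the labels. The annotation names 0 probe sets for GHSROS, so the transfected RNA gave no check of the labels. The labels describe the replicates as biological and do not say whether the transfected cells were pools or single clones.

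Toll-like receptors are membrane proteins that recognise microbial molecules. CD14 binds bacterial lipopolysaccharide and passes it to TLR4, which holds it together with MD-2, the secreted protein encoded by LY96. TLR2 pairs with TLR1 or TLR6 to recognise bacterial lipoproteins, and TLR3 recognises double-stranded RNA in endosomes. The adaptor MYD88 serves most of these receptors and recruits kinases of the IRAK family, IRAK2 among them, which leads to activation of NF-kB. The adaptor TRIF, encoded by TICAM1, serves TLR3 and internalised TLR4 and leads to interferon regulatory factors. CD14 is best known from monocytes and macrophages, while many carcinoma lines express TLR4 and its adaptors.

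Promoter windows are shown for CD14, TLR4 and IRAK2, as 3 examples of the genes for which the same 2 arrays were the highest. TLR3 and MYD88 shared that property, and their windows are not printed. The windows are from RefSeq (build GRCh38.p14) and run from 250 bases before the annotated start of the gene to 50 bases after it, and 8 of the 10 members matched one. LY96 and TLR1 did not. Each is written 5′ to 3′ on the strand of its gene, chr5:140633126-140633425 (minus strand) for CD14, chr9:117704153-117704452 (plus strand) for TLR4 and chr3:10164669-10164968 (plus strand) for IRAK2. Capitals mark matches, on either strand, to any of 6 short motifs named after the factors known to bind them, namely GGGCGG (Sp1), TGANTCA (AP-1), TTGCNNAA (C/EBP), TGATGNAA (C/EBP with ATF), GAGGAA (PU.1, a myeloid factor) and the NF-kB motif.
CD14: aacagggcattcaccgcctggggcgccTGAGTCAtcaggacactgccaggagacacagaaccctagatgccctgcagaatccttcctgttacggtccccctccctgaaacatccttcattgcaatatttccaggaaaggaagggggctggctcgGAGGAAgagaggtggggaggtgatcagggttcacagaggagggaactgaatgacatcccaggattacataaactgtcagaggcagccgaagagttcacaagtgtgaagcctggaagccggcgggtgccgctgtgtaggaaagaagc
TLR4: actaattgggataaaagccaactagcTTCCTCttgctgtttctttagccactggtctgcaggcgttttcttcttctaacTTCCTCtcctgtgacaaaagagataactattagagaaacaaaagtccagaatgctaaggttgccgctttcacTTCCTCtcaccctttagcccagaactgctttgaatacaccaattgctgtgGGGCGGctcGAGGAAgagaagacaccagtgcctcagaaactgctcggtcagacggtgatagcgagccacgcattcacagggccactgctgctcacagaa
IRAK2: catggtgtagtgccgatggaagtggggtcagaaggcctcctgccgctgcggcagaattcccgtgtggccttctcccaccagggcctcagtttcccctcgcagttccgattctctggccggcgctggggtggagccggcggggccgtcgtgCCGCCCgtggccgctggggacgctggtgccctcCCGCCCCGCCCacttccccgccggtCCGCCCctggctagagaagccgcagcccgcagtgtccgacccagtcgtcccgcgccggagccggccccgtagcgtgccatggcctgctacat
The window of CD14 held TGAGTCA, the AP-1 motif, at position 28 and GAGGAA at position 155, with positions counted from 1 at the 5′ end of the window. The window of TLR4 held 1 match to the Sp1 motif and 4 to the PU.1 motif, 3 of them on the opposite strand. The window of IRAK2 held 4 matches to the Sp1 motif, all on the opposite strand, and those at positions 184 and 189 overlapped each other. No 2 different motifs overlapped in these windows. Of 27305 windows of this length, 44.6% held the Sp1 motif, 27.6% the PU.1 motif and 7.76% the AP-1 motif. Over the 8 members with a window, 6 held the Sp1 motif, 4 the PU.1 motif, 2 the C/EBP motif (10.6% of all windows) and 1 each the AP-1 motif (CD14), the NF-kB motif (TICAM1, 1.63% of all windows) and the C/EBP-ATF motif (TLR3, 3.67%). A match says only that these letters are present.

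The 6 arrays did not fall together by vector. On the first principal component of all genes, which held 64.4% of the variance, GHSROS array 3 stood at 29.0 and vector-only array 1 at 29.6, and the other arrays lay between -22.2 and -4.0. A list of 20 mitosis genes averaged 10.11 on GHSROS array 3 and 10.09 on vector-only array 1, and between 10.91 and 11.13 on the other arrays. A list of 18 stress genes of the transcription factor ATF4 ran the other way on average, at 9.80 on GHSROS array 3 and 9.75 on vector-only array 1. The other arrays lay between 8.56 and 9.01. That pair was the highest for 14 of the 18 stress genes, against 18.9% of all genes, so not every gene of the list followed its mean. GHSROS array 3 and vector-only array 1 were the lowest pair for 20 of 20 mitosis genes, against 20.3% of all genes. The fold changes of the members are therefore given below with and without these arrays. Those of further pathway genes are given with all 6 arrays only. Array medians lay between 6.56 and 6.65 on the log2 scale. Markers of the line were present in both groups, with VIM, the gene of vimentin, between 12.99 and 13.12 on GHSROS arrays and between 13.15 and 13.37 on vector-only arrays. The oestrogen receptor gene ESR1 gave 5.13 to 5.18 on GHSROS arrays and 5.04 to 5.18 on vector-only arrays. KRT19, a luminal keratin listed as low in this line, was at 11.56 to 11.84 on GHSROS arrays and 11.83 to 12.11 on vector-only arrays.

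CD14 was at 6.62, 6.77 and 8.09 on GHSROS arrays 1, 2 and 3 (log2 expression), against 8.98, 6.96 and 6.56 on vector-only arrays 1, 2 and 3. One array of each group was therefore high, GHSROS array 3 and vector-only array 1, and the groups overlapped. The highest and lowest arrays differed by 2.41 on the log2 scale, or 5.33-fold, a range wider than that of 99.9% of all genes, which is the property CD14 was chosen for. Between the vectors CD14 averaged 7.16 ± 0.81 with GHSROS and 7.50 ± 1.29 with vector only (SD, n = 3 each), which gave a log2 fold change of -0.34 (SE 0.67, 95% confidence interval -1.94 to 1.26) and an adjusted p of 1 in limma. The difference is smaller than the SD between arrays of either group. It was 0.40 without vector-only array 1, -0.80 without GHSROS array 3, and -0.065 without both. It was -0.61 and -0.81 without vector-only array 2 or 3, and -0.07 and -0.14 without GHSROS array 1 or 2, all with an adjusted p of 0.999 or 1. In RNA from whole cultures, a change in the share of cells that carry CD14 RNA and a change in the amount per cell cannot be told apart.

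LY96, whose product MD-2 binds lipopolysaccharide beside TLR4, was at 5.26, 5.83 and 6.25 on GHSROS arrays 1 to 3, against 6.75, 5.84 and 5.21 on vector-only arrays 1 to 3. The 6 arrays stood in the same order for LY96 as for CD14, with vector-only array 1 highest and vector-only array 3 lowest, a range of 1.55 (2.92-fold). Between the vectors LY96 differed by -0.15 (SE 0.41, 95% confidence interval -1.13 to 0.83), with an adjusted p of 1 in limma. The sign turned without GHSROS array 1 (0.11), without vector-only array 1 (0.26) and without both GHSROS array 3 and vector-only array 1 (0.026).

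TLR4, the lipopolysaccharide receptor itself, was at 9.94, 10.19 and 10.70 on GHSROS arrays 1 to 3, against 10.72, 10.24 and 10.08 on vector-only arrays 1 to 3. GHSROS array 3 and vector-only array 1 were again the highest and differed from each other by -0.01, while for CD14 GHSROS array 3 was lower than vector-only array 1 by a log2 difference of -0.88 and for LY96 by -0.50. The range of TLR4 was 0.78 (1.72-fold), and its log2 fold change of -0.07 (SE 0.24, 95% confidence interval -0.63 to 0.49) had an adjusted p of 1 in limma. That sign turned without GHSROS array 1 (0.10) or vector-only array 1 (0.12).

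**Figure D1:**
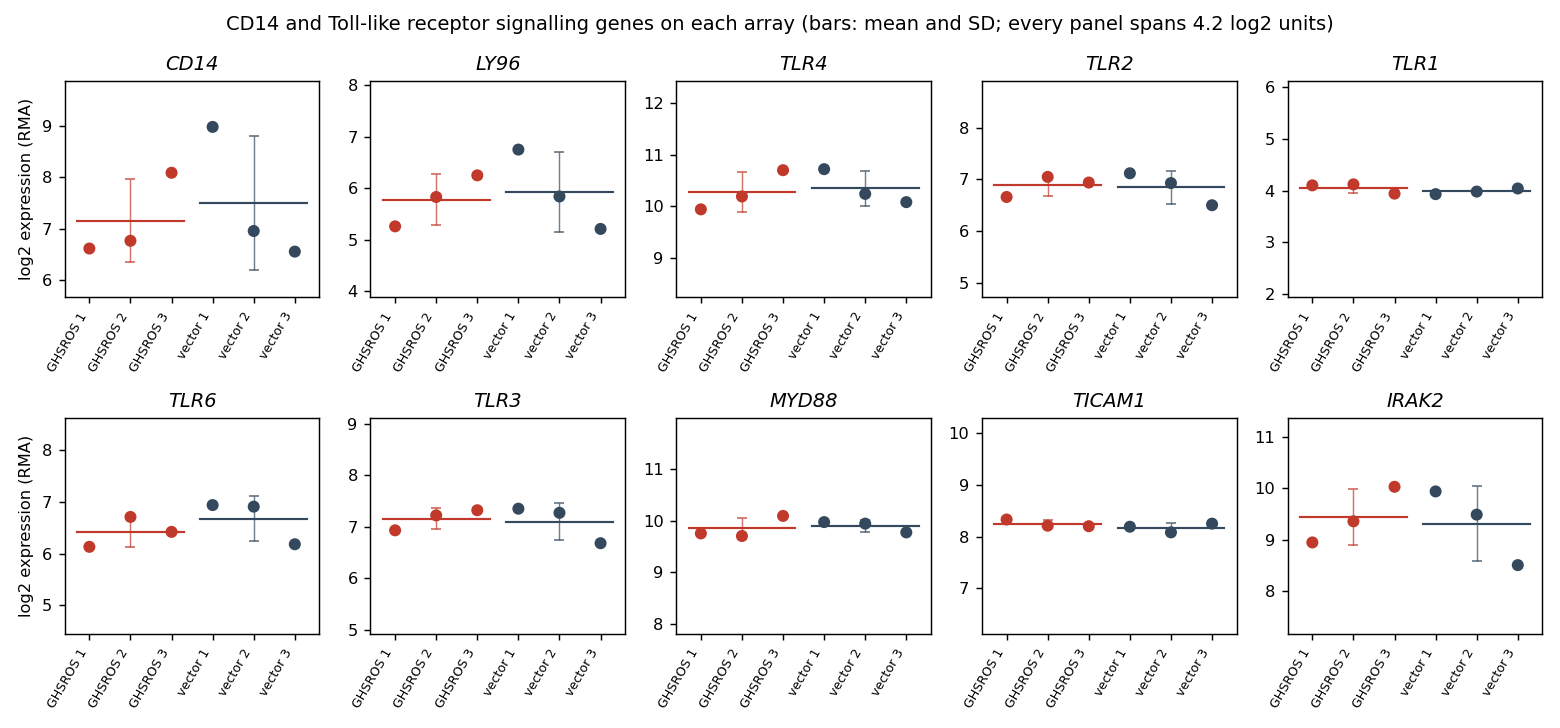
Log2 expression (RMA values) of the 10 genes on each array, GHSROS arrays in red and vector-only arrays in dark blue, with horizontal lines at the group means and vertical bars for the SD (n = 3). CD14, LY96 and IRAK2 range over 1.5 or more log2 units with GHSROS array 3 and vector-only array 1 the 2 highest, whereas TLR1 and TICAM1 lie within 0.25.

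TLR2, the lipoprotein receptor, was at 6.66, 7.05 and 6.94 on GHSROS arrays 1 to 3, against 7.12, 6.93 and 6.50 on vector-only arrays 1 to 3, a log2 fold change of 0.03 (SE 0.18). TLR6, its partner for diacylated lipoproteins, was at 6.13, 6.71 and 6.42 on GHSROS arrays, against 6.94, 6.91 and 6.18 on vector-only arrays, a range of 0.81 (1.75-fold). The log2 fold change of TLR6 was -0.25 (SE 0.24, 95% confidence interval -0.82 to 0.31), with an unadjusted p of 0.324, the smallest of the 10 genes, and an adjusted p of 1 in limma. For TLR6, GHSROS array 3 was not among the high arrays: vector-only arrays 1 and 2 lay highest. Leaving out vector-only array 3 gave -0.504 and vector-only array 1 -0.124, and the sign stayed negative under each omission of 1 array.

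TLR1, the other partner of TLR2, was at 4.10, 4.12 and 3.94 on GHSROS arrays, against 3.93, 3.98 and 4.04 on vector-only arrays, a range of 0.19 in which GHSROS array 3 and vector-only array 1 were lowest. TLR1 and TLR6 are close paralogues that neighbour each other, and how far their probes can read both transcripts was not tested. Whether TLR1 is expressed at all cannot be told from these values. TLR3, the sensor of double-stranded RNA, was at 6.93, 7.22 and 7.32 on GHSROS arrays, against 7.35, 7.27 and 6.68 on vector-only arrays, in the same order of arrays as CD14. Its range was 0.66 (1.59-fold) and its log2 fold change 0.05 (SE 0.20).

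Of the adaptors, MYD88 was at 9.75, 9.70 and 10.09 on GHSROS arrays, against 9.97, 9.94 and 9.77 on vector-only arrays, a range of 0.39 (1.31-fold, beside a median range of 0.37 over all genes) and a log2 fold change of -0.04 (SE 0.13). TICAM1 was at 8.33, 8.21 and 8.20 on GHSROS arrays, against 8.19, 8.08 and 8.25 on vector-only arrays, a range of 0.25 (1.19-fold) and a log2 fold change of 0.07 (SE 0.09). For TICAM1, GHSROS array 3 and vector-only array 1 were neither highest nor lowest.

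IRAK2, the kinase recruited after MYD88, was at 8.95, 9.36 and 10.03 on GHSROS arrays 1 to 3, against 9.94, 9.49 and 8.51 on vector-only arrays 1 to 3. GHSROS array 3 was highest here, just above vector-only array 1, and vector-only array 3 was lowest. The range of 1.53 (2.89-fold) was wider than that of 98.7% of all genes. Between the vectors IRAK2 averaged 9.45 ± 0.55 with GHSROS and 9.31 ± 0.73 with vector only (SD, n = 3 each), a difference of 0.14 (SE 0.41, 95% confidence interval -0.83 to 1.11) with an adjusted p of 1 in limma. It was 0.453 without vector-only array 1, 0.387 without GHSROS array 1, -0.156 without GHSROS array 3, -0.265 without vector-only array 3 and -0.18 with array weights, and 0.16 without both GHSROS array 3 and vector-only array 1.

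**Figure D2:**
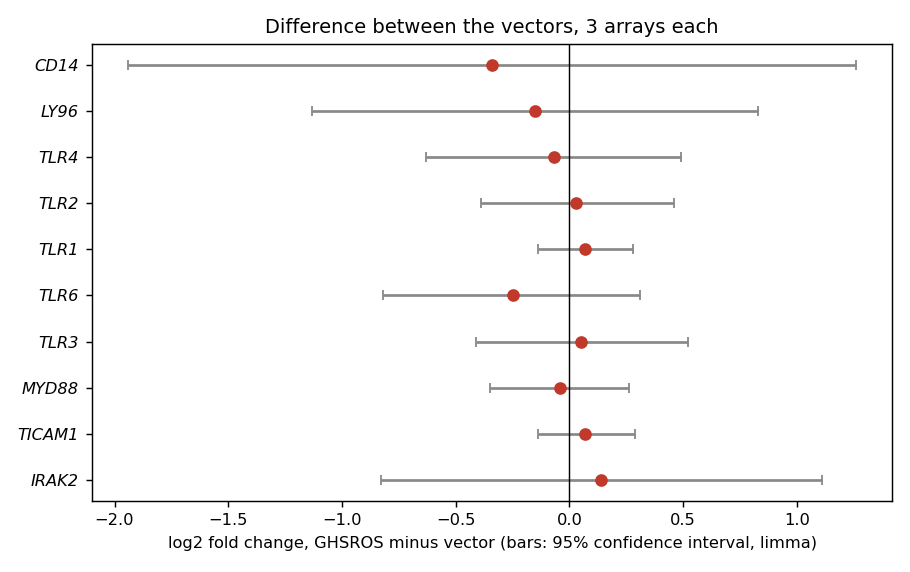
Log2 fold change of each gene, GHSROS minus vector only (x axis, log2 units), with the limma 95% confidence interval over 3 arrays each. Every interval spans 0, from the widest, CD14 (-1.94 to 1.26), to narrow ones such as TLR1 (-0.14 to 0.28).

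In the comparison of GHSROS with vector only, 0 of the 10 members passed an adjusted p of 0.05 in limma, as did 0% of all genes. At an unadjusted p under 0.05 there were 0 of 10 members and 1.77% of all genes. The groups failed to overlap for 0 of 10 members and for 5.51% of all genes. Of the members 5 were lower and 5 higher with GHSROS, against 49.1% of all genes lower. Their median log2 fold change was -0.006, beside 0.002 over all genes, and it became 0.001 when each array was centred on its median. Without GHSROS array 3 and vector-only array 1 the median was 0.061 and 0 members passed. The fold changes then ran from -0.127 for MYD88 and -0.126 for TLR6 to 0.137 for TLR2 and 0.16 for IRAK2. Between them lay TLR4 at -0.096, TLR3 at 0.096, TLR1 at 0.097 and TICAM1 at 0.103. A difference of 2-fold in either direction lay outside the confidence intervals of TLR4, TLR2, TLR1, TLR6, TLR3, MYD88 and TICAM1. For TLR1, whose expression cannot be told from its low values, this concerns the array values and not the amount of RNA. The interval of CD14 held 2-fold in both directions, that of LY96 only 2-fold lower and that of IRAK2 only 2-fold higher.

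The order of the arrays was shared by more than 1 member. GHSROS array 3 and vector-only array 1 were the 2 highest of the 6 for CD14, LY96, TLR4, TLR3, MYD88 and IRAK2, or 6 of 10 members, against 18.9% of all genes. Without CD14, picked for its range, it was 5 of 9. At the other end, GHSROS array 1 and vector-only array 3 were the 2 lowest for 7 of 10 members, or 6 of 9 without CD14, against 11.9% of all genes. The full order of all 6 arrays seen for CD14 was found again for LY96 and TLR3, and for 1.5% of all genes. A range of at least 1 log2 unit was reached by 3 of 10 members, CD14, LY96 and IRAK2, and by 5.57% of all genes, and the range is what CD14 was picked for. Without CD14 it was 2 of 9. The members share their libraries and were chosen with results known, so these counts describe the 6 arrays and were not tested.

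As deviations from each gene's own mean, the members' median was -0.29, -0.01 and 0.21 on GHSROS arrays 1, 2 and 3, against 0.32, 0.02 and -0.37 on vector-only arrays 1, 2 and 3. GHSROS array 3 had 7 of 10 members above their own mean and vector-only array 1 had 8, while GHSROS array 1 and vector-only array 3 had 2 each. The stress list of ATF4 was likewise high, and the mitosis list low, on the arrays where CD14, LY96, TLR4 and IRAK2 were high, and the part of either in these values was not tested.

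**Figure D3:**
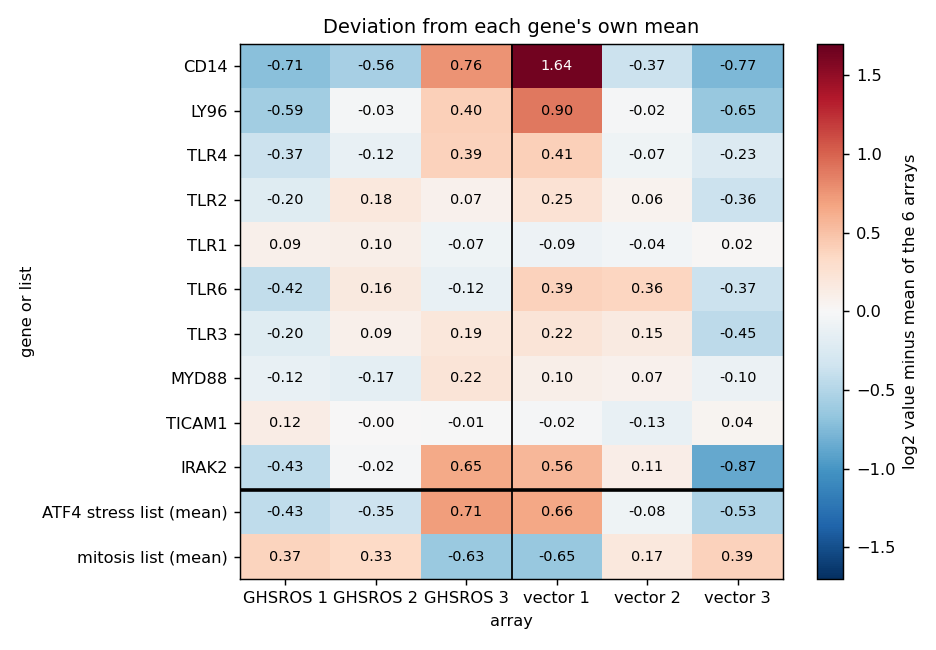
Log2 value of each gene minus its mean over the 6 arrays (colour and printed number), with GHSROS arrays at the left and vector-only arrays at the right, and below the line the same for the mean of the ATF4 stress list and of the mitosis list. GHSROS array 3 and vector-only array 1 are positive for CD14 (0.76 and 1.64), LY96, TLR4, IRAK2 and the stress list and negative for the mitosis list.

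The 5 genes whose values lay closest to CD14 after each gene was centred on its own mean were ITGA10, PIEZO2, GPNMB, PPIL6 and BTN3A3, with root mean square differences of 0.122, 0.141, 0.168, 0.171 and 0.193 log2 units over the 6 arrays. ITGA10 encodes an integrin subunit that binds collagen and was at 5.71, 5.82 and 7.40 on GHSROS arrays 1 to 3, against 7.92, 6.19 and 5.62 on vector-only arrays 1 to 3. PIEZO2, a mechanically gated ion channel gene, was at 6.22, 6.24 and 7.91 on GHSROS arrays, against 8.37, 6.56 and 6.27 on vector-only arrays. GPNMB, a transmembrane glycoprotein gene, was at 5.07, 5.13 and 6.77 on GHSROS arrays, against 7.23, 5.15 and 5.11 on vector-only arrays. Each had vector-only array 1 highest and GHSROS array 3 next, which follows from their choice by closeness to CD14. Among the other members LY96 came closest to CD14 at 0.433, which placed it at rank 129 of all genes, followed by IRAK2 at 0.546 and TLR4 at 0.626. TLR1 was farthest, at 0.960.

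**Figure D4:**
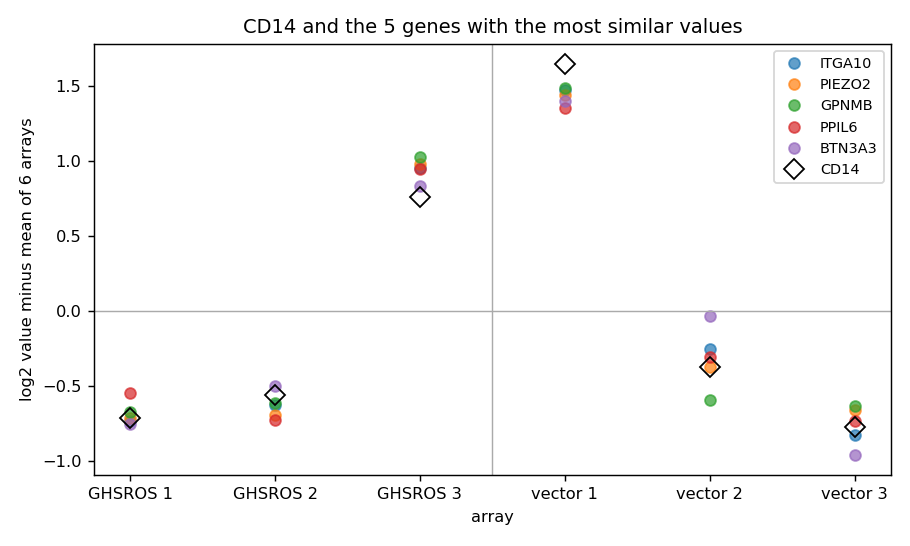
Log2 value minus the mean of the 6 arrays (y axis) for CD14 (open diamonds) and the 5 genes with the smallest root mean square difference from it (filled circles), by array. All lie above 0 on GHSROS array 3 and vector-only array 1 and below 0 on the other arrays.

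CD14 is a marker of monocytes, so 13 of 14 listed leukocyte and monocyte markers that were measured are given beside it. Their mean lay between 6.14 and 6.32 on GHSROS arrays and between 6.20 and 6.28 on vector-only arrays. PTPRC, which encodes the leukocyte antigen CD45, was at 3.62 to 3.68 on GHSROS arrays and 3.55 to 3.62 on vector-only arrays. SPI1, the gene of PU.1, varied by 0.16 over the 6 arrays, the complement receptor gene ITGAM by 0.32 and the receptor gene CSF1R by 0.46, beside 2.41 for CD14. LAPTM5, a lysosomal membrane protein gene of blood cells, had a range of 1.30, with GHSROS array 3 highest at 11.74 and vector-only array 1 next at 11.28. CD68, a lysosomal glycoprotein gene, was at 12.20, 12.06 and 12.46 on GHSROS arrays, against 12.66, 12.39 and 12.39 on vector-only arrays. GHSROS array 3 and vector-only array 1 were the highest pair for 4 of the 13 markers, CD68, CSF1R, LAPTM5 and SPI1, against 18.9% of all genes. No array value is a true zero, so none of these markers can be called absent.

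Further genes of the pathway were described from 5 lists, 70 of 79 genes measured, of which 36 were higher and 34 lower with GHSROS, 0 passed an adjusted p of 0.05 in limma and 3 had an unadjusted p under 0.05, against 1.77% of all genes. Their median log2 fold change was 0.003. The groups did not overlap for 5 of the 70 genes, CD180, IRF5, PTGS2, IL1B and IFNB1, against 5.51% of all genes. GHSROS array 3 and vector-only array 1 were the highest pair for 25 of the 70 genes, against 18.9% of all genes, and the lowest pair for 11, against 20.3%.

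Of the other receptors and accessory proteins 11 of 13 were measured, with 5 higher, 6 lower and 0 past the test. LBP, the serum protein that delivers lipopolysaccharide to CD14, was at 5.25, 4.95 and 6.70 on GHSROS arrays 1 to 3, against 6.37, 5.03 and 5.34 on vector-only arrays 1 to 3. LBP was thus high on the same 2 arrays as CD14, with a range of 1.75 (3.37-fold) and a log2 fold change of 0.05 (SE 0.52). TLR9, the sensor of unmethylated DNA, had the next widest range in the list, 0.48. The largest differences were 0.08 (SE 0.12) for TLR8 and 0.05 (SE 0.09) for HSP90B1, a chaperone of these receptors. On the lower side they were -0.13 (SE 0.09) for CD180 and -0.10 (SE 0.11) for RNF216.

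Of the adaptors and kinases 13 of 17 were measured, with 4 higher, 9 lower (49.1% of all genes were lower) and 0 past the test. GHSROS array 3 and vector-only array 1 were the lowest pair for 6 of the 13, against 20.3% of all genes, and the highest for 3, against 18.9%. IKBKE, a kinase that activates interferon regulatory factors, was at 8.61, 8.96 and 9.24 on GHSROS arrays, against 9.34, 9.40 and 8.82 on vector-only arrays. Its log2 fold change of -0.25 (SE 0.21) was the most negative of the list, followed by -0.14 (SE 0.11) for the ubiquitin ligase gene TRAF6. PELI1, a ubiquitin ligase gene that acts on IRAK proteins, was lowest on GHSROS array 3 (8.63) and next lowest on vector-only array 1 (8.76). The most positive were PELI2 at 0.11 (SE 0.16) and TAB2 at 0.05 (SE 0.10).

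All 14 genes of the transcription factor and IKK list were measured, 6 higher and 8 lower, with 0 past the test. IRF1, an interferon regulatory factor, was at 8.29, 8.26 and 9.77 on GHSROS arrays 1 to 3, against 9.36, 8.94 and 8.73 on vector-only arrays 1 to 3. Its range of 1.51 (2.84-fold) was the widest of the list, with GHSROS array 3 highest, and its log2 fold change was -0.24 (SE 0.41). RELB, an NF-kB subunit gene, had a range of 0.66. IRF5 was at 6.14, 6.31 and 6.32 on GHSROS arrays, against 6.10, 6.07 and 6.0 on vector-only arrays. It was the 1 gene of the 14 whose groups did not overlap, against 5.51% of all genes. Its log2 fold change was 0.20 (SE 0.09), with an adjusted p of 1 in limma. REL differed by 0.17 (SE 0.16) and IRF3 by -0.15 (SE 0.11).

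Of the inhibitors 14 of 15 were measured, 8 higher and 6 lower, with 0 past the test. SIGIRR, a receptor-like inhibitor of this signalling, was at 7.28, 7.21 and 7.54 on GHSROS arrays, against 7.74, 7.74 and 7.46 on vector-only arrays, and differed by -0.30 (SE 0.13), with an adjusted p of 1 in limma and an unadjusted p of 0.0487. The groups overlapped because GHSROS array 3 lay above vector-only array 3. ZC3H12A, an RNase gene, differed by 0.27 (SE 0.20) and TNFAIP3, the gene of the deubiquitinase A20, by 0.21 (SE 0.11), while NFKBIB differed by -0.16 (SE 0.15). NFKBIA, the NF-kB inhibitor gene that NF-kB itself induces, was at 11.35, 11.53 and 12.04 on GHSROS arrays, against 11.89, 11.65 and 11.39 on vector-only arrays, highest again on GHSROS array 3 and next on vector-only array 1.

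Of the genes downstream of NF-kB and interferon regulatory factors 18 of 20 were measured, 13 higher and 5 lower (49.1% of all genes were lower), with 0 past the test and a median log2 fold change of 0.06. The groups did not overlap for 3 of the 18 genes, PTGS2, IL1B and IFNB1, against 5.51% of all genes. PTGS2, the inducible cyclooxygenase gene, was at 9.21, 8.49 and 9.24 on GHSROS arrays, against 8.42, 8.21 and 7.82 on vector-only arrays, and differed by 0.84 (SE 0.24), with an adjusted p of 1 in limma and an unadjusted p of 0.0105. The order of arrays for PTGS2 differed from that for CD14, since GHSROS array 1 lay close to GHSROS array 3. IL1B, the interleukin-1 beta gene, and IFNB1, the interferon beta gene, were named after their values were seen. IL1B differed by 0.42 (SE 0.15), with an adjusted p of 1 in limma and an unadjusted p of 0.0243, and IFNB1 by 0.19 (SE 0.08). All values of IFNB1 were low, at 3.86, 3.89 and 3.92 on GHSROS arrays against 3.78, 3.71 and 3.62 on vector-only arrays. As with TLR1, whether IFNB1 is expressed at all cannot be told from them. IL6, an inflammatory cytokine gene, differed by 0.46 (SE 0.23), the interferon-induced IFIT1 by -0.48 (SE 0.21) and CXCL8 by -0.07 (SE 0.16). SOD2, the mitochondrial superoxide dismutase gene, was at 9.84, 10.07 and 11.29 on GHSROS arrays 1 to 3, against 11.09, 10.17 and 9.71 on vector-only arrays 1 to 3, a range of 1.58 (2.98-fold) with a log2 fold change of 0.08 (SE 0.47). SOD2 had the same order of arrays as IRAK2. The limma confidence interval of its log2 fold change ran from -1.03 to 1.18. It held 1 log2 unit in both directions, so the difference between the vectors was not shown to be small.

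**Figure D5:**
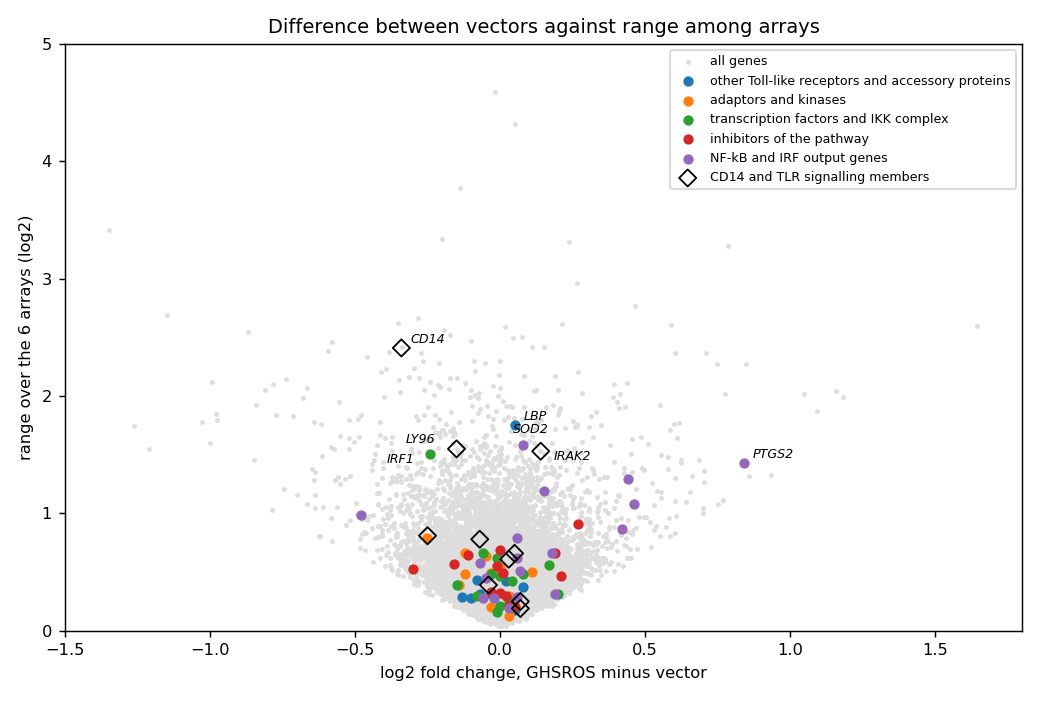
Range over the 6 arrays (y axis, log2 units) against log2 fold change, GHSROS minus vector only (x axis), for all genes (grey), the 5 pathway lists (coloured) and the 10 members (open diamonds). CD14 (range 2.41, fold change -0.34), LBP, LY96, IRAK2 and SOD2 have wide ranges near a difference of 0, and PTGS2 lies to the right at 0.84.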

How the data were processed

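Affymetrix Human Gene arrays (1 colour) measured RNA from 6 MDA-MB231 cultures. The authors made the deposited log2 values, 1 for each probe set, with RMA, per the submitters' processing notes. Its version and settings are not given in the sources used. RMA as usually run equalises the arrays' distributions, so a shift of most genes together would not show, and differences of dim probe sets can be compressed. Arrays have no read depth, and precision is limited by their number. The platform annotation gave 1 symbol to 19310 of 28869 probe sets, several to 1752 and none to 7807, and only the first were named. The probe set with the highest mean was kept per gene (18377 genes), with no filter and no further scaling.

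Groups and replicate numbers came from the sample titles. GHSROS was compared with vector only using limma 3.58.1 under R 4.3.3 (lmFit, then eBayes, two-sided, Benjamini-Hochberg over all genes, threshold 0.05), with no covariate. Log2 fold changes are GHSROS minus vector only. If the cultures were not grown separately, the p-values reflect no more than the spread among these samples. The test was tried on simulated data with known shifts. Named genes were the members, the 2 most positive, 2 most negative and 2 widest-ranging genes of each pathway list, and the 5 genes nearest to CD14 by root mean square difference. The markers named (VIM, ESR1, KRT19, PTPRC, SPI1, ITGAM, CSF1R, LAPTM5 and CD68) were picked from their lists after their values were seen. The members and lists were chosen with earlier results of these data known. Alternatives were a replicate block, centring on array medians, quantile normalization, level filters (25th percentile and median), averaging a gene's probe sets, array weights, a robust prior with intensity trend, and arrays left out. The filters kept 9 members (without TLR1) and 4 members (TLR4, MYD88, TICAM1 and IRAK2).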

Additional observations from a re-analysis of the deposited data

How the results depend on the processing

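Under every alternative run, 0 genes passed an adjusted p of 0.05 in limma, and the members' adjusted p lay between 0.923 and 1. Of 143 fold changes of members under the alternatives, 126 kept their sign and 17 turned, all in differences that did not pass. Many of the 126 could not turn. The replicate block, the level filters, the averaging of probe sets (1 per member) and the robust prior with intensity trend leave a member's fold change as it was. All 17 that turned came from array weights or from arrays left out. With array weights TLR2 (-0.065), TLR3 (-0.112) and IRAK2 (-0.18) turned negative, and without GHSROS array 3 and vector-only array 1 together LY96 turned to 0.026. Leaving out each array in turn gave -0.807 to 0.401 for CD14, -0.512 to 0.261 for LY96, -0.283 to 0.117 for TLR4, -0.141 to 0.166 for TLR2, -0.155 to 0.177 for TLR3, -0.167 to 0.03 for MYD88 and -0.265 to 0.453 for IRAK2, and the members' median ran from -0.178 to 0.142. TLR1 (0.041 to 0.126), TLR6 (-0.504 to -0.11) and TICAM1 (0.027 to 0.115) kept their sign. Genes at an unadjusted p under 0.05 numbered 325 of 18377. They numbered 187 of 13783 genes at or above the 25th percentile and 76 of 9189 at or above the median. The share as well as the count was thus lower among brighter genes. The count was 877 with array weights and 191 to 480 with 1 array left out (the cause was not tested). With the replicate number as a block that count was 223 (119 higher, against 179), and CD14 stood at -0.338 with an unadjusted p of 0.69 in limma. The replicate numbers did not pair the arrays: correlations of deviations across genes were -0.714 and -0.669 for numbers 1 and 3, whose GHSROS arrays correlated best with a vector-only array of another number, and 0.504 for number 2, whose arrays did deviate together.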
